A study of Homo sapiens with 2 samples.

Results

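The genes described here encode the proteins of the mitochondrial ribosome, and they were taken as every gene whose platform symbol begins MRPL or MRPS and whose annotation is protein-coding. This gave 76 genes of the 20045 named on the array, 48 with an MRPL symbol (large subunit) and 28 with an MRPS symbol (small subunit). All 76 were detected on both arrays by the probe used, at a detection p under 0.01, among 9405 genes measured that way. Pseudogenes were left out, and antisense RNAs with the same prefix are described apart. The rule uses symbols and annotation and no measured difference.

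RNA came from HCT116, a human colorectal carcinoma cell line labelled p53+/+, grown in serum-containing medium. One culture was given vehicle and the other 10 nM SB590885, a RAF kinase inhibitor, and the labels give no time of treatment. Each condition has 1 Illumina bead array, so no difference below has a replicate check, no test across samples was possible and no p-value is given. Values are the normalized intensities deposited by the authors, and ratios are SB590885 over vehicle on the log2 scale. Background was left in these intensities, which shrinks the ratios of dim genes. The background-corrected values quoted beside them come from limma's neqc with an offset of 16. All 10 epithelial markers were detected on at least 1 array, from EPCAM (4420 with vehicle and 6439 with SB590885) to CLDN3, which was detected after SB590885 only. None of the 3 leukocyte and 3 endothelial markers with a named probe was detected. Of 5 fibroblast markers COL1A1 was detected on both arrays and DCN after SB590885 only, and of 3 erythroid markers HBA1 was detected with vehicle only.

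Mitochondria carry their own ribosomes, which translate the few proteins encoded in mitochondrial DNA, all of them subunits of the respiratory chain and ATP synthase. The mitochondrial ribosome descends from a bacterial one. Its RNAs are made inside the organelle, whereas every one of its proteins is encoded in the nucleus, made in the cytosol and imported. Some of these proteins have bacterial relatives, and others were added to the particle during the evolution of mitochondria. The large subunit forms peptide bonds and releases the nascent chain through a tunnel facing the inner membrane. The small subunit binds the messenger RNA and reads its codons.

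The 76 genes were nearly level between the arrays as a group, and their members spread to both sides. The log2 ratios had a median of -0.04, ran from -0.58 to 0.48 and had an SD of 0.23. Of the 76 genes 35 were higher and 41 lower after SB590885, so 53.9% had a ratio below 0, against 51.9% of the 9405 genes detected on both arrays. No member was 1.5-fold higher and none 1.5-fold lower, where 1.59% of all genes measured were at least 1.5-fold higher and 1.24% at least 1.5-fold lower. MRPS35 came nearest, 1.496-fold lower. The median over all genes was -0.01 with an SD of 0.25. The members' probes were brighter than most, with a median intensity of 1103 with vehicle against 310.4 over all genes measured. Among 1767 genes with signals between 595.1 and 1784, the interquartile range of the members, the median was -0.03, the SD 0.30, and 3% and 2.09% were past 1.5-fold up and down.

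By a smaller size rule, a log2 ratio of at least 0.32 in either direction, 9 members were higher and 6 lower. That is 11.8% and 7.89% of the members, against 7.69% higher and 7.62% lower over all genes measured and 11.5% and 12.5% among the genes of like signal. The members' shares were therefore near those of other genes. The remaining 61 members had ratios smaller than that.

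**Figure D1:**
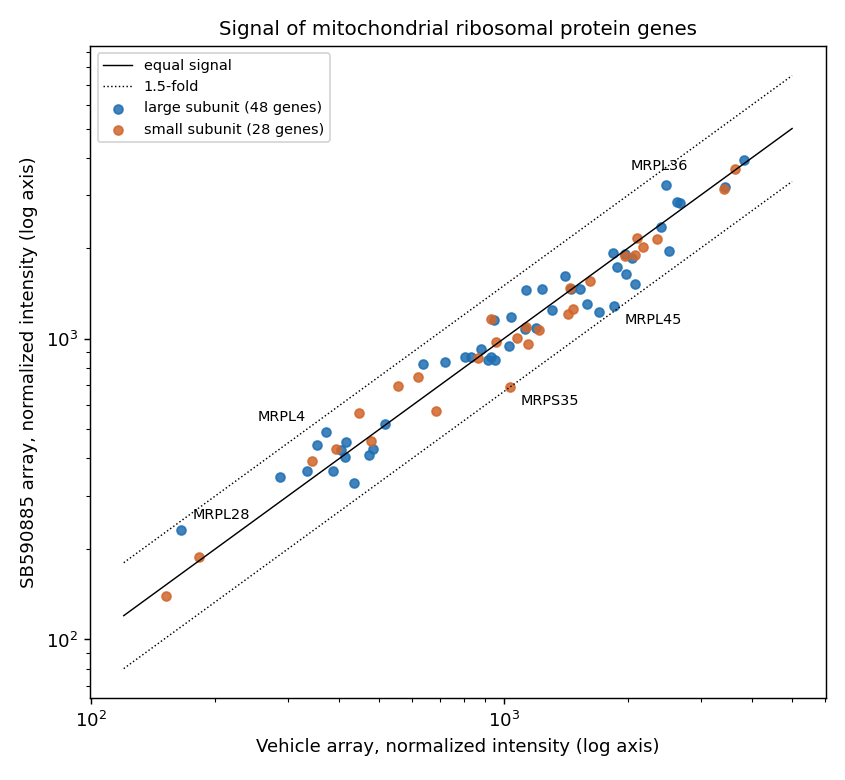
Normalized intensity of each of the 76 genes on the vehicle array (horizontal, log axis) and the SB590885 array (vertical, log axis), 1 point a gene, coloured by subunit; dotted lines mark 1.5-fold. All points lie between the dotted lines, from MRPS14 (152.3 and 139.1) to MRPL33 (3823 and 3929), and the values correlated across genes with r = 0.979.

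The medians of both subunits lay slightly below 0. The median log2 ratio was -0.01 over 48 large-subunit genes, of which 24 were higher and 24 lower, and -0.06 over 28 small-subunit genes, of which 11 were higher and 17 lower. The difference between the medians, large minus small, was 0.05. It was 0.007 with the mean of all detected probes of a gene and 0.02 with the second brightest probe, so its size rests on the choice of probe. Single genes varied with an SD of 0.24 in the large subunit and 0.21 in the small one. Intensities had medians of 1085 with vehicle and 1119 with SB590885 in the large subunit, and 1106 and 1036 in the small one. The interquartile range of the ratios ran from -0.12 to 0.15 for the large subunit and from -0.13 to 0.04 for the small one, so the ranges overlapped over most of their length. Some symbols misname the subunit: by their systematic names MRPS18A and MRPS30 sit in the large subunit of the human particle. MRPS18A went from 342.7 to 392.0 (log2 ratio 0.19) and MRPS30 from 2175 to 2023 (-0.10). With both moved, the medians were again -0.01 and -0.06, and with the subunit genes DAP3, CHCHD1 and GADD45GIP1, which lack the prefix, added by their place in the particle the difference was 0.02.

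**Figure D2:**
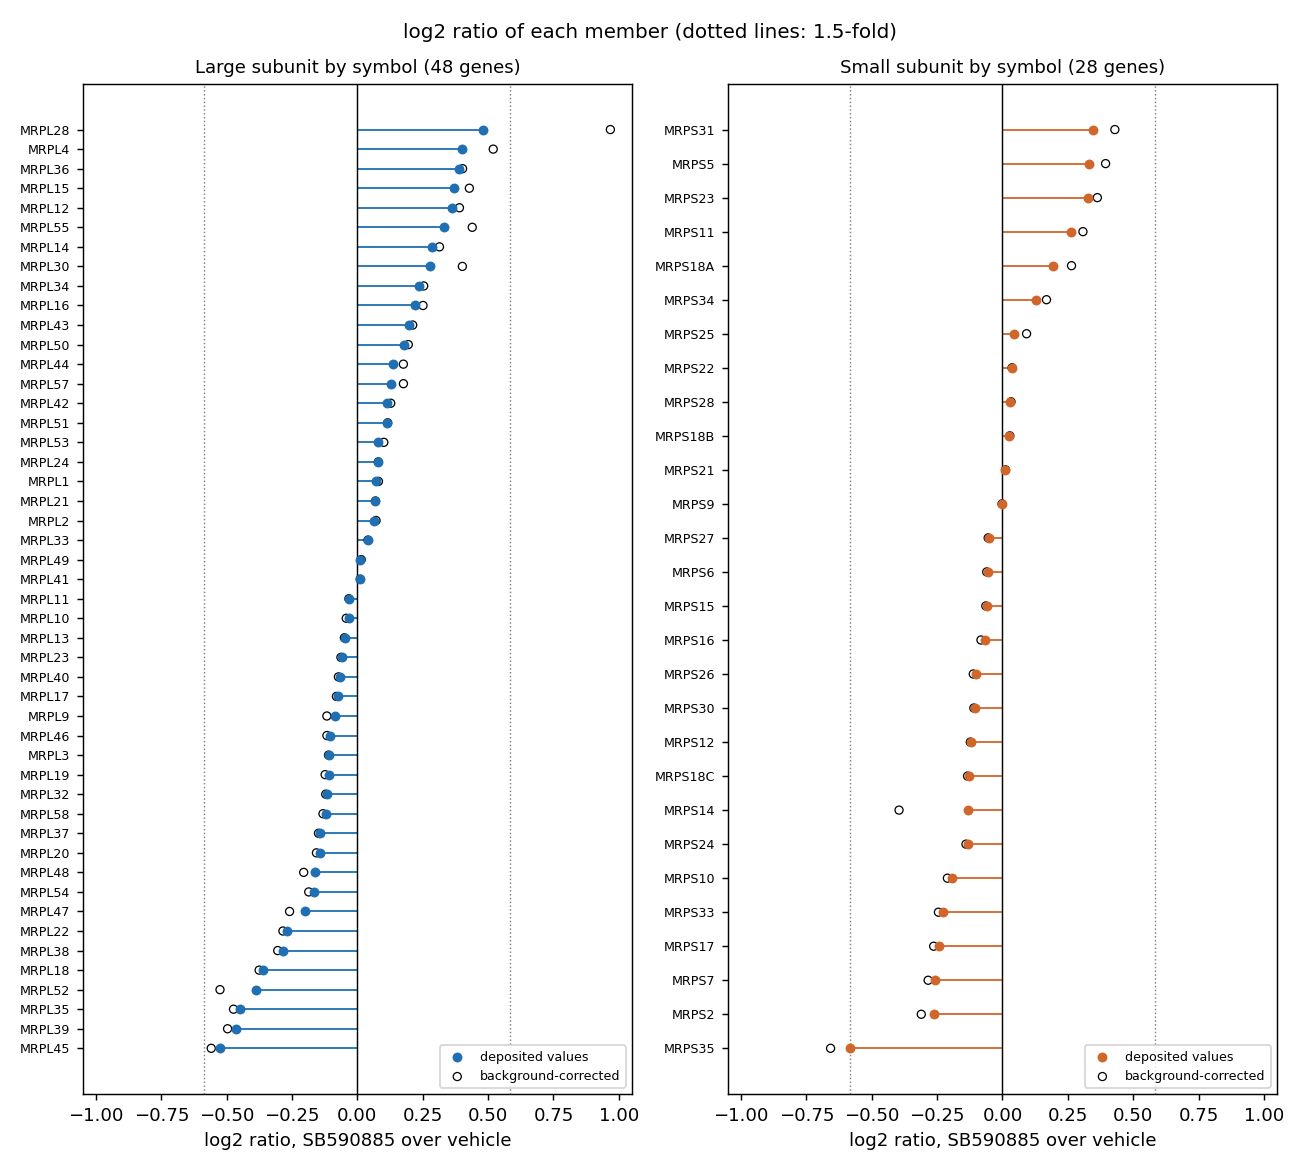
log2 ratio (SB590885 over vehicle) of each large-subunit gene (left) and small-subunit gene (right), ordered by the deposited values (filled points); open points are the background-corrected ratios and dotted lines mark 1.5-fold. In the deposited values no filled point passes a dotted line, and after correction MRPL28 (0.97) and MRPS35 (-0.66) do.

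Sorted by descent as read from systematic names, the 45 proteins named for bacterial relatives had a median of -0.05. The 31 with names that mark mitochondria-specific proteins had 0.01. Within the large subunit the order was the other way round, at 0.04 for 29 bacterial-type genes and -0.07 for 19 mitochondria-specific ones. Within the small subunit the 16 bacterial-type genes had a median of -0.09, with 12 of them lower (51.9% over all genes measured). The 12 mitochondria-specific genes of that subunit had 0.03. Since the sign of the difference turned between subunits and the medians lay between -0.09 and 0.04, descent gave no common direction.

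In the large subunit, the genes for the core around the peptidyl transferase centre were mostly higher. MRPL4 had an intensity of 370.7 with vehicle and 489.3 with SB590885, a log2 ratio of 0.40. Its second detected probe gave 0.18 (242.3 to 274.2). MRPL16 went from 719.0 to 837.2 (0.22). MRPL2, a core RNA-binding protein, went from 835.2 to 872.7 (0.06), and MRPL3 from 3430 to 3185 (-0.11). So 3 of these 4 genes were higher, none past 1.5-fold, where 4518 of the 9405 genes measured were higher.

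The stalk that recruits translation factors is built on MRPL10 and MRPL11 and carries copies of MRPL12. MRPL12, which has also been found to bind the mitochondrial RNA polymerase, went from 1135 to 1458, a log2 ratio of 0.36. MRPL10 went from 412.9 to 403.7 (-0.03) and MRPL11 from 2404 to 2353 (-0.03). The other MRPL11 probes, annotated to different transcripts, gave 0.40 and 0.26, the latter dim (126.6 and 151.3) and detected after SB590885 only. MRPL11 was thus level only in the probe used, while both MRPL10 probes gave -0.03.

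Around the exit of the peptide tunnel 5 of 6 genes were lower, where 51.9% of all genes measured had a ratio below 0. The lowest was MRPL45, which helps to tether the ribosome to the inner membrane, at 1852 with vehicle and 1288 with SB590885. This is a log2 ratio of -0.52, the lowest of the large subunit, and its second probe gave -0.51 (756.7 to 531.9). MRPL22, which lines the tunnel, went from 1979 to 1642 (-0.27), and MRPL47 from 472.1 to 410.4 (-0.20). The second MRPL47 probe gave 0.02, so its place among the lower genes rests on the probe used. MRPL17 (-0.07) and MRPL23 (-0.06) were near level, and MRPL24 went from 2671 to 2818 (0.08, second probe 0.25). The median of the 6 was -0.14.

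In the central protuberance, the crown that contacts the small subunit, 6 of 7 genes were lower (51.9% over all genes measured), with a median of -0.12. MRPL18, a relative of the bacterial protein that binds 5S RNA, went from 2510 to 1957, a log2 ratio of -0.36, though its second probe gave -0.06. MRPL38 went from 1594 to 1309 (-0.28) and MRPL48 from 481.6 to 430.6 (-0.16). MRPL58, a peptidyl-tRNA hydrolase built into the subunit, had -0.12, MRPL46 -0.10 and MRPL40 -0.07. MRPL55 was the exception, at 352.9 with vehicle and 443.9 with SB590885 (0.33, second probe 0.24).

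Further large-subunit genes lay at both ends of the range. MRPL28 had the highest ratio of all members, 0.48, but on a dim signal of 165.5 with vehicle and 230.7 with SB590885. After background correction its ratio was 0.97, or 1.96-fold higher. It was then the 1 member past 1.5-fold on the high side, where 5.09% of all genes measured lay, and MRPS35 the 1 on the low side, where 4.63% lay. MRPL36, one of the smallest proteins of the particle, went from 2480 to 3247 (0.39) and MRPL15 from 637.3 to 824.0 (0.37). MRPL14 went from 947.3 to 1154 (0.28), MRPL30 from 287.0 to 347.9 (0.28) and MRPL34 from 1241 to 1461 (0.24). All 6 of these have bacterial relatives.

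On the low side, MRPL39 went from 1698 with vehicle to 1232 with SB590885, a log2 ratio of -0.46. MRPL35 went from 2077 to 1523 (-0.45), and its other probes gave -0.26 and -0.15. MRPL52 went from 432.8 to 330.4 (-0.39). With MRPL45 and MRPL18 these made up the 5 large-subunit genes past 0.32 on the low side. MRPL54 (-0.17), MRPL20 (-0.14) and MRPL37 (-0.14) were lower by less, and MRPL43 (0.20) and MRPL50 (0.18) followed MRPL16 on the high side. MRPL33, with the brightest probe among the members, went from 3823 to 3929 (0.04), and MRPL57, among the dimmest of the large subunit, from 332.9 to 363.5 (0.13). The large-subunit genes not singled out lay between -0.11 and 0.14.

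In the small subunit, the head closes over the messenger and transfer RNAs. Of the members assigned to the head, 7 of 8 were lower (51.9% over all genes measured), with a median of -0.16. MRPS35, a mitochondria-specific head protein, was the lowest member of all. It went from 1038 with vehicle to 693.4 with SB590885, a log2 ratio of -0.58, and -0.66 (1.58-fold lower) after background correction. MRPS7, which nucleates folding of the head in bacteria, went from 1147 to 959.0 (-0.26), MRPS33 from 1471 to 1257 (-0.23, second probe -0.29) and MRPS10 from 1220 to 1067 (-0.19). MRPS24 had -0.13 and MRPS14 -0.13, the latter at 152.3 and 139.1, near the limit of detection. MRPS9 was level at 867.1 and 866.1. MRPS31 alone was higher, from 445.0 to 565.7 (0.35).

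Genes for the body and platform were more even, with a median of -0.06 over 9 bacterial-type genes, 6 of them lower (51.9% over all genes measured). MRPS17 went from 1435 to 1212 (-0.24), MRPS18C from 2349 to 2149 (-0.13) and MRPS12, which sits at the decoding centre, from 3412 to 3141 (-0.12). MRPS16, MRPS15 and MRPS6 had ratios of -0.07, -0.06 and -0.06, and MRPS21 0.01. MRPS5, near the channel through which messenger RNA enters, went from 555.0 to 698.9 (0.33), and MRPS11 from 620.6 to 745.0 (0.26).

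The remaining small-subunit genes included MRPS23, which went from 929.6 to 1168 (0.33). Together with MRPS31 and MRPS5 it was past 0.32 on the high side, and MRPS35 alone was past it on the low side. MRPS34 went from 393.3 to 429.9 (0.13). MRPS2, whose bacterial relative joins the subunit late, went from 687.4 to 573.0 (-0.26), and MRPS26 had -0.10. MRPS22 (0.04), MRPS25 (0.04), MRPS28 (0.03) and MRPS18B (0.03) were near level. The groups by site are small, and their medians ran from -0.16 to 0.14. No difference between sites was tested.

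Within-array repeats came from genes with several probes. Of 24 members with more than 1 detected probe, 18 (75%) had the same sign in all of them, against 60.4% of 2631 such genes over the whole array. The ratios of the 2 brightest probes correlated with r = 0.656 over these members, and 6 of the 24 pairs differed by more than 0.2. Their differences had an SD of 0.19. That SD holds the variation of both probes, so it cannot be set directly beside the spread between members. MRPL11, MRPL47, MRPS12 and MRPS27 had probes of opposite sign with at least one beyond 0.2. For MRPL11 the second brightest probe, at 0.40, went from 1323 to 1750. For MRPS12 the probes gave -0.12, 0.29 and -0.11, again on 3 annotated transcripts. MRPS27 had -0.05 and 0.29 from probes to the same transcript, with the second going from 852.4 to 1043. MRPL45, at -0.52 and -0.51, and MRPL10, at -0.03 for both, repeated most closely.

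**Figure D3:**
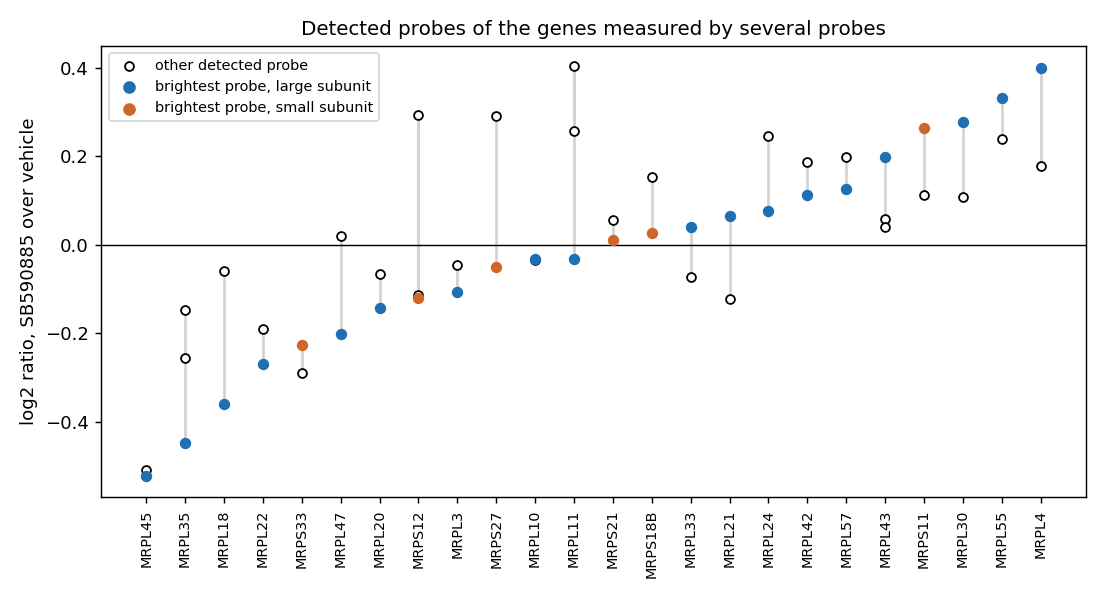
log2 ratio (SB590885 over vehicle, vertical) of every detected probe of the 24 genes that have more than 1, ordered by the brightest probe (filled; open points are the other probes). MRPL45 repeats at -0.52 and -0.51, while MRPL11, MRPS12 and MRPS27 have probes more than 0.3 apart.

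In studies of other cells, NRF1 and the ETS factor GABPA are known to bind many promoters of nuclear genes for mitochondria. RefSeq's promoter table (GRCh38.p14) held 68 of the 76 genes. In the 250 bases before the gene start, on either strand, the ETS core CCGGAAG occurred in 22 of 68 (32.4%), against 11.8% of 15842 promoters of protein-coding genes and 17.5% of those of 7695 genes detected on both arrays. The NRF1 core CGCANGCGC occurred in 10 (14.7%), against 9.7% of all and 14.6% of detected genes. The YY1 core AANATGGC occurred in 5 (7.4%), against 3.6% and 4.4%. Of the 68 promoters 4 held more than 1 of these motifs. Genes with the ETS core had a median log2 ratio of -0.03 and those without it -0.05. With the NRF1 core the median was -0.04 over 10 genes, and without it -0.05. With the YY1 core it was -0.12 over 5 genes, and without it -0.03. A match to these letters is a description and not a binding site. The same ETS core stands in promoters of genes on the high side, MRPS31 and MRPS23 (0.35 and 0.33), and on the low side, MRPL47 and MRPS10 (-0.20 and -0.19). Their 100 bases before the gene start are printed 5′ to 3′ along the gene, with the ETS core in capitals on either strand. In MRPL47 the first run of capitals is instead the YY1 core, on the opposite strand.
MRPS31 (chr13:40771191-40771290, minus strand): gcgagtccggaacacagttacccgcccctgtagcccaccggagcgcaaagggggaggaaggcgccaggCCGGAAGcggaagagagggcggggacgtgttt
MRPS23 (chr17:57850045-57850144, minus strand): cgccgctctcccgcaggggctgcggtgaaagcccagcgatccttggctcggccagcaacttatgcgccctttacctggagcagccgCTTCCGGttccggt
MRPL47 (chr3:179604639-179604738, minus strand): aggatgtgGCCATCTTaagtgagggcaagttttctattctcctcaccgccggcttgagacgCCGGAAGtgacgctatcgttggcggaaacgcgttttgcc
MRPS10 (chr6:42217862-42217961, minus strand): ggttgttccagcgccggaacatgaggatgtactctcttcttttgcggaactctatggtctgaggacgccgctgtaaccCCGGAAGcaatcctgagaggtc

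Some of these genes start close to a gene read the other way. Of the 68 with a promoter entry, 21 had a head-to-head partner within 1000 bases, and for 15 of them the partner was detected on both arrays. The ratios of member and partner had the same sign in 7 of 15 cases and correlated with r = -0.137, where 2 of the 15 are the same pair seen from each side. That pair is MRPL46 and MRPS11, whose starts lie 320 bases apart and whose ratios were -0.10 and 0.26. MRPL18 had -0.36 and its partner TCP1, a cytosolic chaperonin subunit, -0.01 (2311 to 2301). MRPS2 had -0.26 and its partner PIERCE1 0.27 (290.0 to 350.9). MRPL32 and PSMA2, a proteasome subunit, were alike at -0.11 and -0.12. Along the chromosomes, the 10 nearest detected genes around MRPS35, MRPL45, MRPL39 and MRPL35 had medians of -0.04, -0.01, -0.05 and -0.08. The members themselves had -0.58, -0.52, -0.46 and -0.45. They were picked as the lowest, so medians of their neighbours would lie nearer 0 in any case, and an effect of the region was not tested. Around the 4 highest members, MRPL28, MRPL4, MRPL36 and MRPL15, the neighbours' medians were -0.04, 0.06, 0.17 and -0.12, so 2 of the 4 lay on the opposite side of 0 from the member.

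Among the neighbouring steps of mitochondrial gene expression, 2 translation factors lay beyond the range of the ribosomal proteins in the deposited values. The genes of the other steps stayed within it. After background correction the translation factor TUFM (0.65) lay inside the members' range of -0.66 to 0.97. MTRF1L (1.26) and, on the low side, the regulator GABPA (-1.21) lay outside it. Of the 12 translation factors, 5 were higher and 7 lower, with a median of -0.01. At least 1.5-fold higher were 2 of the 12, against 1.59% of all genes measured. MTRF1L, a release factor that ends translation, went from 405.5 with vehicle to 833.0 with SB590885 (1.04), but its second probe gave 0.33 (151.4 to 190.4). TUFM, the elongation factor that delivers aminoacyl-tRNA, went from 1395 to 2133, a log2 ratio of 0.61. On the low side GFM1, the translocase, went from 462.5 to 333.5 (-0.47), MTIF2, the initiation factor that brings in the first tRNA, from 1164 to 853.1 (-0.45) and GUF1 from 319.2 to 253.3 (-0.33).

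Of 24 assembly and ribosomal RNA modification factors detected on both arrays, 12 were higher and 12 lower, none past 1.5-fold. MALSU1, which keeps the large subunit from joining too early, was highest at 1886 and 2591 (0.46). The helicase DHX30 was lowest, from 1370 to 933.4 (-0.55), with a second probe at -0.06, and AFG3L2, the protease that matures MRPL32, had -0.39. MTG2 was detected after SB590885 only. Of 18 proteins that charge mitochondrial tRNAs, 8 were higher and 10 lower, from YARS2 (1314 to 1006, -0.39) to HARS2 (667.4 to 869.7, 0.38), with a median of -0.03. In mitochondrial transcription and RNA processing 9 of 13 were lower (51.9% over all genes measured), none past 1.5-fold. LRPPRC, which stabilises mitochondrial messenger RNAs, went from 949.8 to 697.1 (-0.45), TFAM, the packaging and transcription factor, from 903.2 to 750.1 (-0.27), and TFB2M was highest at 0.26, with a second probe at -0.02.

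Of the nuclear regulators, GABPA went from 196.4 with vehicle to 140.0 with SB590885, a log2 ratio of -0.49. Both signals lie close to background, and the corrected ratio was -1.21. PPRC1 had -0.14, YY1 -0.12, MYC -0.06 (second probe -0.25) and ESRRA 0.03, while NRF1, PPARGC1A and PPARGC1B were not detected. Subunits whose symbols lack the MRP prefix were near level: DAP3, a GTP-binding protein of the small subunit, had 0.10, CHCHD1 -0.05 and GADD45GIP1, which belongs to the large subunit, -0.06, while PTCD3 was not detected.

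**Figure D4:**
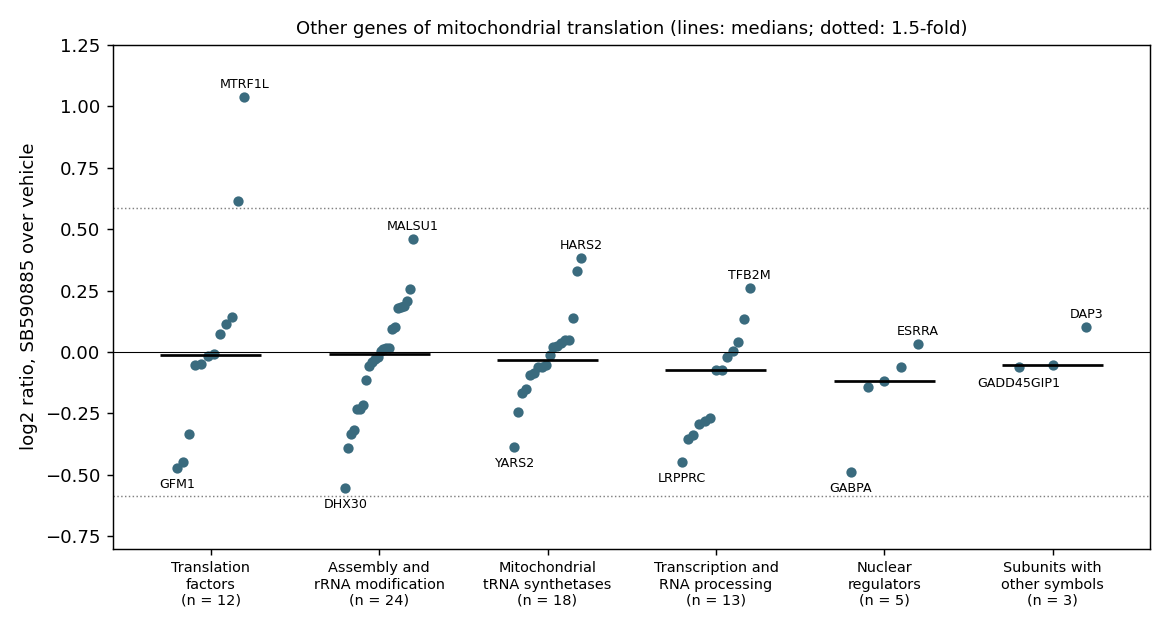
log2 ratio (SB590885 over vehicle, vertical) of the genes of 6 lists detected on both arrays, 1 point a gene, with the list's median as a line and the highest and lowest gene named; dotted lines mark 1.5-fold. MTRF1L (1.04) and TUFM (0.61, the unnamed point under it) are past the upper line, and the medians run from -0.12 to -0.01.

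Set beside related gene sets, the mitochondrial ribosome varied more from gene to gene than the cytosolic one, whose probes are also brighter (median 10012 with vehicle). The 72 cytosolic ribosomal protein genes had a median of -0.02 and an SD of 0.15, with 1 higher and 2 lower past 0.32 on the log2 scale. The 72 genes for respiratory chain and ATP synthase subunits had a median of -0.01 and an SD of 0.24, with 8 higher and 7 lower by the same rule, close to the 9 and 6 of 76 mitochondrial ribosomal protein genes. These are descriptions of 2 arrays, and no test of the difference in spread was made.

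**Figure D5:**
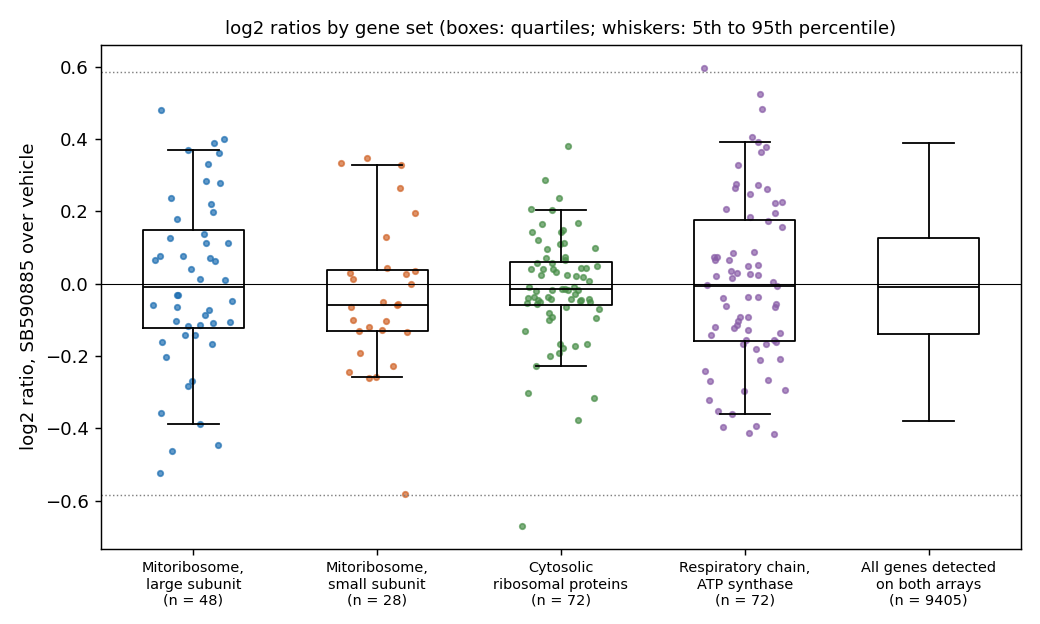
log2 ratios (SB590885 over vehicle, vertical) by gene set: points are genes, boxes span the quartiles with the median as a line, and whiskers run from the 5th to the 95th percentile; the 9405 genes detected on both arrays have a box only. Medians of the large and small mitochondrial subunits (-0.01 and -0.06) lie close to that of all genes (-0.01), and the cytosolic set is the narrowest (SD 0.15).

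Some transcripts share the prefix but encode no ribosomal protein. MRPL20-AS1, a long non-coding RNA annotated as antisense to MRPL20, had an intensity of 450.6 with vehicle and 745.9 with SB590885, a log2 ratio of 0.73 (1.66-fold higher) in the deposited values and 0.88 after background correction. Both probes of MRPL20 itself were slightly lower, at -0.14 (1197 to 1084) and -0.07 (1026 to 979.3). MRPL23-AS1 was not detected. The pseudogene MRPS31P5, a copy of MRPS31, was detected after SB590885 only, by 1 of its 2 probes (121.7 and 154.4), and signal shared between such copies cannot be told apart here. MRPL42P5 was likewise detected after SB590885 only (116.6 and 131.8).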

How the data were processed

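Illumina bead arrays were compared, 1 per condition (vehicle and 10 nM SB590885). The authors deposited intensity values and detection p-values for 47318 probes; no source used here names the array software or normalization method. Per the file headers, the normalized table gives an intensity and a detection p-value per probe and array. Its sorted intensities differ between arrays by at most 0.129, and it equals the series matrix. The table deposited as non-normalized is the same intensity times 1.025, so no raw signal was used. Platform annotation named 30111 probes with 1 gene; 8 had several and stayed unnamed and 17199 were not listed. Symbols were updated through Entrez identifiers for 30072 probes (RefSeq GRCh38.p14); the files name no build.

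A gene's value is its detected probe (p under 0.01 on either array) of highest mean log2 intensity. Background correction used neqc (limma 3.58.1, R 4.3.3); summaries used Python 3.11.15. Differences are described by size (1.5-fold, with 2-fold and a log2 ratio of 0.32 as alternatives), with no test. Subunit and descent follow systematic names among RefSeq's synonyms, and MRPS24 and MRPS28 and the sites follow textbook knowledge. The rule for naming took the 10 highest and 10 lowest of each subunit, members past 1.5-fold, members with opposed probes, the 3 brightest and 3 dimmest of each subunit, the ends of each list and misnamed members; others were named after their values were seen. Members and lists were chosen with earlier results of these data known. The counting by size was checked on simulated data.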

Additional observations from a re-analysis of the deposited data

Results flagged for a closer look

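MRPL20-AS1 lies outside the ribosomal protein genes and was brighter than on the vehicle array, with a log2 ratio of 0.73 from a single probe (0.88 after background correction). No second array of either condition was analysed here.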

How the results depend on the processing

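No paired analysis was possible because each condition has 1 array and no test was made. The median log2 ratio of all members ran from -0.06 to -0.01 over 13 alternatives, that of the large subunit from -0.03 to 0.003 and that of the small one from -0.07 to -0.03 over 11 each. Their difference ran from 0.007 to 0.05. None of these log2 values moved by 0.05 or more. The count of genes with a ratio below 0, 41 in the main setting, ran from 39 to 43, where the 43 came with DAP3, CHCHD1 and GADD45GIP1 added. The counts past 1.5-fold, 0 higher and 0 lower, became 1 higher (MRPL28) and 1 lower (MRPS35) with neqc at offsets of 16 and 50 and with median centring after correction, where 5.09% and 4.63% of all genes passed at offset 16. With the smaller size rule, 0.32 on the log2 scale, they were 9 and 6. Adding antisense RNAs, an alternative chosen after seeing the data, gave 1 higher (MRPL20-AS1). The series matrix repeats the same values. With 1 array per condition, the variation between cultures was not measured.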
